A study of Mus musculus with 20 samples.

Results

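Of the 20 deposited RNA-Seq libraries of BV-2 cells, 10 came from cultures that had received lipopolysaccharide (LPS), 5 of aged and 5 of young microglia, taken by their labels. The comparison of these 2 groups is described here across all expressed genes. BV-2 is a mouse microglial line immortalised by a retrovirus, labelled WT. The young cells were at low passage, whereas the aged cells had been kept in culture over the long term. Per the study, frozen aliquots of both ages were thawed at the same time. All 10 cultures received LPS at 100 ng/ml for 6 h, and 5 untreated cultures of each age served as the background. The labels give each culture a batch number from 1 to 5, with all 4 groups represented once per batch. Whether the 5 aged cultures derive from separate long-term cultivations is not given in the sources used here, so the p-values measure the spread between these cultures, and what is shown holds for 1 cell line without the other cells of a brain.

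LPS, a component of the wall of Gram-negative bacteria, is handed by CD14 to the receptor TLR4. One branch of the signal, through MyD88, IRAK and TRAF proteins, frees NF-kappaB, which turns on cytokine and chemokine genes together with its own inhibitors. The other branch, through TRIF and IRF3, turns on type I interferon, which acts back on the cells through STAT2 and IRF9 and raises a large set of antiviral genes. Macrophages that respond to LPS also slow their proliferation.

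Between 11371508 and 15884447 counts were assigned to genes in the 10 LPS libraries, so that 3 counts, the floor used here, correspond to 0.207 to 0.296 CPM (counts per 1000000 counts of a library, scaled by its TMM factor). The mitochondrial share of the counts ranged from 0.517% to 1.12%. All 10 microglial and macrophage markers exceeded the floor in LPS libraries, but *Cx3cr1* did not do so in each of them. Its level was 0.249 to 0.597 CPM in young and 0 to 0.690 CPM in aged LPS cultures. The summed level of the 10 markers was 3485 to 4787 CPM in young and 2932 to 4120 CPM in aged LPS cultures. Of the 10, 6 were lower in the aged cultures. Of the markers of other brain cells, *Rbfox3*, *Snap25*, *Syt1* and *Map2* of neurons, *Mog*, *Olig2* and *Sox10* of oligodendrocytes, *Aqp4*, *Aldh1l1* and *Gja1* of astrocytes, the 6 fibroblast genes and *Cd3e* and *Cd8a* of lymphocytes had 0 counts in these libraries. Endothelial markers summed to 412 to 495 CPM, almost all of it from *Flt1* and *Kdr*, while *Cldn5* and *Tek* were at 0. In a principal component analysis of the 500 most variable genes, the first component held 67.3% of the variance and separated the 5 aged from the 5 young cultures. Aged culture 3, at 4.23, and young culture 4, at -7.06, stood nearest to the other group, against 16.6 to 19.2 for the other aged and -20.9 to -12.1 for the other young cultures.

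**Figure D1:**
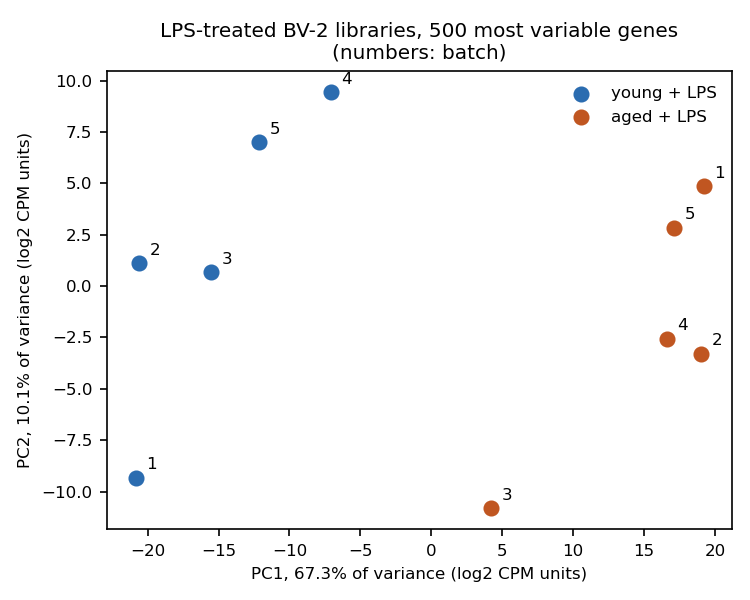
Principal components of the 10 LPS libraries, computed on the log2 CPM of the 500 most variable genes; each point is 1 culture, coloured by group and numbered by batch, and each axis gives the share of variance it holds. The aged cultures lie at 4.23 to 19.2 on the first component and the young cultures at -20.9 to -7.06, with aged culture 3 and young culture 4 nearest to the opposite group.

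LPS-treated aged BV-2 microglia differed from their young counterparts in 3717 of the 12799 genes tested (29%), at an adjusted p below 0.05 in edgeR's quasi-likelihood test, which is the meaning of differentially expressed gene (DEG) and of higher and lower throughout. Of these DEGs, 1794 were higher (14% of tested genes) and 1923 lower (15%) in the aged cultures. Lower genes moved further than higher ones. At 2-fold or more 314 genes were lower and 76 higher (390 in all, 3.05% of tested genes), and at 4-fold or more 48 were lower and 11 higher. The median log2 fold change over all tested genes was 0.0085, over the higher DEGs 0.35 and over the lower DEGs -0.43. In 1900 genes (14.8%) the ranges of the 5 aged and 5 young cultures did not overlap, 856 of them higher (6.69%) and 1044 lower (8.16%), and 1827 of these 1900 were DEGs.

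The split between directions depends on the scaling of the libraries. The TMM factor, which corrects a library for the RNA taken up by its most abundant genes, was 0.963 ± 0.009 (SD, n = 5) in aged and 0.910 ± 0.015 (SD, n = 5) in young LPS cultures, with aged above young in 5 of 5 batches (two-sided exact permutation test, p = 0.0079, the smallest p this design can give). Scaled by library size alone, the comparison called 4520 genes, of which 70.1% were higher, against 48.3% with the TMM factor. Leaving out batch 2 lowered the count to 2156 DEGs, 2140 of them among the 3717, and leaving out both aged culture 3 and young culture 4 raised it to 4118. None of the shared DEGs changed direction, but these fits reuse most or all of the same libraries. A gene called in both fits could hardly differ in sign, so this is no separate evidence.

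Promoter sequences are shown for 5 genes whose levels carry the main differences described here, an interferon signal transducer, an interferon-induced GTPase, a cytokine, an NF-kappaB inhibitor and a replication factor. Each line gives the 250 bases before the RefSeq transcription start on GRCm38.p6, 5′ to 3′ on the gene's strand, which is the plus strand for all 5. The windows are chr10:128270248-128270497 for *Stat2*, chr3:142496684-142496933 for *Gbp5*, chr5:30012864-30013113 for *Il6*, chr17:45555450-45555699 for *Nfkbie* and chr11:98907901-98908150 for *Cdc6*. Capitals mark matches to the interferon-stimulated response element (ISRE) in *Stat2* and *Gbp5* (first match). The NF-kappaB motif is marked in *Gbp5*, *Il6* and *Nfkbie* (second match of each). The AP-1 motif TGANTCA is marked in *Il6* and *Nfkbie* (first match of each), and an E2F motif in *Cdc6*. The ISRE matches, the NF-kappaB match of *Gbp5* and the E2F match are read from the other strand. The *Cdc6* window lies within the gene span given for it below, which begins upstream of the RefSeq start. A match describes letters and is not a measured binding site.
Stat2: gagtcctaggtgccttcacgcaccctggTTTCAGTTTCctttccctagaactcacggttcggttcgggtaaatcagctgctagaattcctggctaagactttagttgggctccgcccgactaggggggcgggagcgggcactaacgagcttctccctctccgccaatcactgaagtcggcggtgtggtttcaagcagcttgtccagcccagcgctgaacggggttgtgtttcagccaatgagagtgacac
Gbp5: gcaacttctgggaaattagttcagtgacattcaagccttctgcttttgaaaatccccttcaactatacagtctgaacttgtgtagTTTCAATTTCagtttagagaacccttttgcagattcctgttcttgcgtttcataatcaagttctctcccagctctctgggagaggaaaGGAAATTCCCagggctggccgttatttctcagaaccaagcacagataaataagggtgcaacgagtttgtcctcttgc
Il6: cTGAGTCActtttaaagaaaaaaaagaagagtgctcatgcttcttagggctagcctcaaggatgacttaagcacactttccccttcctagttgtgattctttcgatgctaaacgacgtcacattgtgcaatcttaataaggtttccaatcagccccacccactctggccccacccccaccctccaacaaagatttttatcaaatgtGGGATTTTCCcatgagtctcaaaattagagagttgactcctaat
Nfkbie: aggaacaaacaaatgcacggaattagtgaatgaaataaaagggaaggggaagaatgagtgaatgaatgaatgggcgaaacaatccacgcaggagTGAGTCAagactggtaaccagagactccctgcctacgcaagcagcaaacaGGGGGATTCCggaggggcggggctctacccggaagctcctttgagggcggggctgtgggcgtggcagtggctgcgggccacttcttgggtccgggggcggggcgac
Cdc6: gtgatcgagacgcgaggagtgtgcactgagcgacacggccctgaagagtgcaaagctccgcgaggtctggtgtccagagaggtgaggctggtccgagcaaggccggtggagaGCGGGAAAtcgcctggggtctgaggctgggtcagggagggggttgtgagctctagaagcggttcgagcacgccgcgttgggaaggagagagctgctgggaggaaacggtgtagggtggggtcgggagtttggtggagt

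Under LPS the aged cultures had lower levels of the interferon-induced genes. Of 35 antiviral genes tested, 35 were lower, with a median log2 fold change of -1.35, and in 31 of them every aged culture lay below every young one. Of 12 interferon-induced GTPases, which attack the vacuoles of intracellular pathogens, 12 were lower (median -1.71). Over the other fits, including those without 1 library or 1 batch, 34 or 35 antiviral genes and 12 GTPases were lower, except with at least 10 counts required in every library. That filter left 15 antiviral genes and 3 GTPases, and all 15 and all 3 were lower.

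*Ifih1*, which encodes the cytosolic sensor of double-stranded RNA MDA5 (ENSMUSG00000026896, chromosome 2, 62595798 to 62646255 on GRCm38, minus strand), had the largest decrease named here. Its level was 17.5, 15.3, 10.00, 11.6 and 14.8 CPM in young cultures 1 to 5, and 0.492, 0.165, 0.759, 0.387 and 0.289 CPM in aged cultures 1 to 5. The groups were far apart, and the aged level was 31.6-fold lower (log2 fold change -4.98 ± 0.28 (SE), adjusted p = 8.72e-10). Without LPS, *Ifih1* had at most 5 counts in a young and 0 in every aged library, and the aged LPS levels rest on 7, 2, 11, 5 and 4 counts. Aged culture 2 was thus below the floor of 3 counts and the others little above it, and the size of the fold is imprecise.

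*Ifi205*, a member of the PYHIN family of interferon-inducible nuclear proteins, was measured at 52.6, 60.7, 33.1, 15.7 and 29.7 CPM in young and at 2.53, 2.80, 10.8, 3.02 and 3.54 CPM in aged cultures (log2 fold change -3.05 ± 0.37, adjusted p = 7.91e-06). *Sp110* and *Sp140* encode speckled nuclear body proteins of macrophages that are raised by interferon. *Sp110* stood at 18.6 to 35.6 CPM in young and 1.90 to 8.00 CPM in aged cultures (-2.76 ± 0.25), and *Sp140* at 25.4 to 45.7 against 4.28 to 12.0 CPM (-2.40 ± 0.20). For all 3 genes the highest aged culture was number 3. They are among the 12 largest decreases, as are *Ifih1* and *Il6*, and all 12 were chosen for groups without overlap.

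Among the GTPases, *Gbp5*, a guanylate-binding protein, reached 106, 88.6, 61.6, 41.0 and 57.0 CPM in young and 11.5, 7.51, 31.6, 14.8 and 8.10 CPM in aged cultures, a 4.77-fold lower level (log2 fold change -2.25 ± 0.33, adjusted p = 5.42e-05). Its promoter window above holds both an ISRE and an NF-kappaB match. All 5 guanylate-binding protein genes tested were lower (median -1.68), as were 4 of 4 *Ifit* genes (median -1.73), whose products bind viral RNA, and 6 of 6 *Oas* genes (median -0.88), whose products activate RNase L. These 3 subgroups were formed after the values were seen. *Tgtp2*, a T-cell specific GTPase, was lower as well (-2.51 ± 0.35, 2.16 to 4.23 against 0.165 to 0.897 CPM). *Tgtp2* and the guanylate-binding, *Ifit* and *Oas* genes have near-identical copies between which reads could be divided, so their single values are uncertain. *Phf11c*, one of a cluster of like interferon-raised genes and uncertain for the same reason, was lower too (-1.01 ± 0.23, adjusted p = 0.00202).

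The genes that carry the interferon signal followed the same direction with smaller changes. Of 17 genes for interferon receptors, JAK-STAT proteins and IRFs, 14 were lower and none higher (median -0.41), while *Irf3*, *Irf8* and *Ifngr1* were not called. *Stat2*, the interferon-specific STAT, was at 167, 152, 123, 105 and 121 CPM in young and 54.5, 32.2, 93.7, 40.0 and 42.8 CPM in aged cultures (log2 fold change -1.34 ± 0.19, adjusted p = 1.68e-05). *Irf7*, which amplifies interferon production, was at 135 to 271 CPM in young and 67.1 to 158 CPM in aged cultures (-1.15 ± 0.21, adjusted p = 0.00023). The ranges of *Stat2* did not overlap, while aged culture 3 exceeded the lowest young culture for *Irf7*.

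Genes of antigen presentation were lower as well. All 17 tested genes of MHC class I presentation were lower (median -0.86), among them 5 of 5 heavy chains and 3 of 3 immunoproteasome subunits, subgroups formed after the values were seen. The interaction of age and LPS, explained further on, was called in 5 of the 17, all negative, beside 2.27% of all tested genes. With the batch as a block it was called in 10. *Tap2*, a subunit of the peptide transporter of the endoplasmic reticulum, was measured at 90.4, 90.1, 77.5, 55.3 and 63.2 CPM in young and at 23.5, 22.7, 45.7, 26.0 and 21.7 CPM in aged cultures (log2 fold change -1.42 ± 0.19, adjusted p = 6.00e-06). *Psmb9*, an immunoproteasome subunit, was 2.62-fold lower (-1.39 ± 0.25, adjusted p = 0.000173), although its exons share 212 bases with *Tap1* on the opposite strand. Of 9 costimulatory and checkpoint ligands, 7 were lower and none higher (median -0.62). *Cd274*, which encodes the checkpoint ligand PD-L1, was at 100.3 to 206 CPM in young and 39.2 to 107 CPM in aged cultures (-1.38 ± 0.22). *Cd40*, which receives help from T cells, was at 716, 662, 604, 322 and 415 CPM in young and 160.3, 218, 374, 199 and 172 CPM in aged cultures (-1.27 ± 0.20, adjusted p = 5.78e-05). In both, aged culture 3 lay above young culture 4, and the other 4 aged cultures lay below every young one. *Slamf7*, a receptor of activated macrophages and lymphocytes, was 6.21-fold lower (-2.64 ± 0.30, 7.76 to 21.7 against 0.990 to 3.10 CPM).

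**Figure D2:**
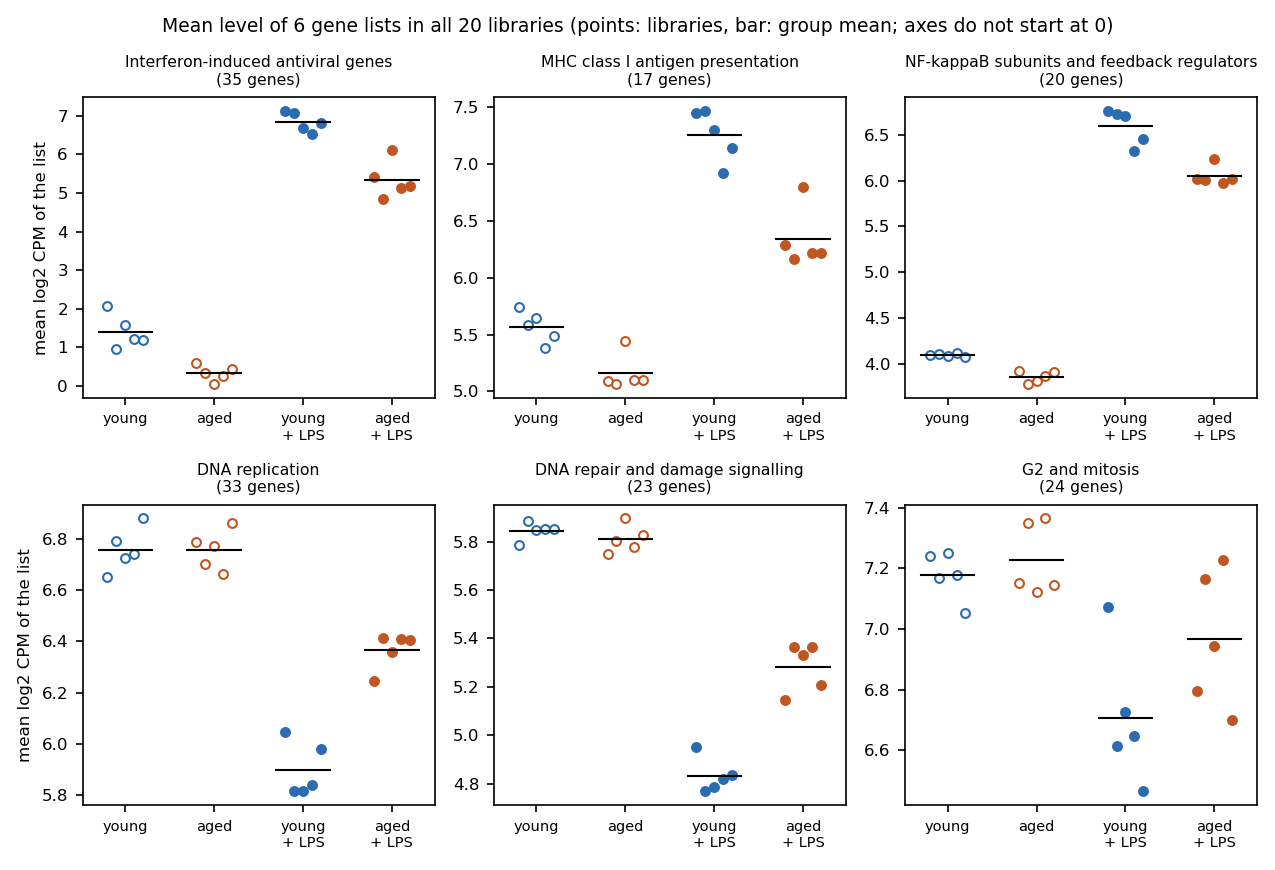
Mean log2 CPM of 6 gene lists in each of the 20 cultures, by group; each point is 1 culture, open without and filled with LPS, the horizontal line is the mean of the 5, and the axes do not start at 0. For the interferon-induced antiviral genes the 5 aged LPS cultures average 5.34 and the 5 young LPS cultures 6.84, whereas for DNA replication they average 6.37 and 5.90.

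Averaged over the 35 antiviral genes, the level in log2 CPM was 1.41 ± 0.44 (SD, n = 5) in young and 0.34 ± 0.20 in aged untreated cultures, and 6.84 ± 0.25 in young and 5.34 ± 0.47 in aged LPS cultures. LPS raised the list in both ages, and the aged cultures were lower both before and after. Of the 35 genes, 13 were also lower DEGs without LPS, beside 7.81% of all tested genes. The response to LPS differed between the ages in 4 of the 35 (7 with the batch as a block), all 4 smaller in aged cultures. A negative interaction was called in 2.27% of all tested genes. The median interaction over the 35 genes was 0.15, with a median age difference of -1.50 without and -1.35 with LPS. Genes with no counts in untreated aged cultures enter these medians. In bulk samples, fewer responding cells and less RNA per cell cannot be told apart.

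Of 20 genes that sense LPS and pass the signal on, 12 were lower and 1 higher (median -0.27). *Tlr4* itself was at 28.7, 34.6, 32.3, 37.8 and 35.6 CPM in young and 44.0, 32.0, 35.6, 28.9 and 40.6 CPM in aged cultures. The groups overlapped and the difference was not called (0.10 ± 0.10, adjusted p = 0.502). *Cd14*, the co-receptor that hands LPS to TLR4, was at 394 to 709 CPM in young and 322 to 428 CPM in aged cultures (-0.64 ± 0.19, adjusted p = 0.0166), a call that was lost without batch 1 (adjusted p = 0.0509) or batch 2 (adjusted p = 0.0895). *Irak2*, a kinase adaptor of the MyD88 branch, was at 105, 105, 104, 90.6 and 92.6 CPM in young and 66.5, 60.0, 79.5, 66.2 and 68.3 CPM in aged cultures (-0.54 ± 0.09, adjusted p = 4.55e-05), with no overlap. *Traf6*, the ubiquitin ligase downstream of the IRAKs, was the single higher member (0.21 ± 0.07, adjusted p = 0.038). Its groups overlapped (49.4 to 58.6 against 55.5 to 71.7 CPM), and the call was lost in several fits, among them those without aged culture 1 (adjusted p = 0.123) or young culture 2 (adjusted p = 0.112).

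NF-kappaB and the genes that restrain it were lower as a group. Of 20 subunits and feedback regulators, 19 were lower (median -0.40), and *Dusp2* was not called. The 5 NF-kappaB subunits (median -0.28) and the 5 IkB genes (median -0.60), subgroups formed after the values were seen, were all lower. *Nfkb1*, which encodes the p105/p50 subunit, had a small decrease (-0.25 ± 0.06, adjusted p = 0.00369), from 453 to 499.7 CPM in young cultures to 388 to 418 CPM in aged cultures. *Nfkbie*, which encodes the inhibitor IkB epsilon, was at 54.3, 44.5, 41.5, 21.6 and 26.7 CPM in young and 15.9, 14.0, 23.04, 14.9 and 13.1 CPM in aged cultures (-1.21 ± 0.22, adjusted p = 0.000274). Only aged culture 3 and young culture 4 overlapped. *Zfp36*, which encodes tristetraprolin, a protein that destabilises cytokine mRNA, was at 86.4 to 142 CPM in young and 49.5 to 72.8 CPM in aged cultures (-1.07 ± 0.12, adjusted p = 1.19e-06). *Traf1*, an NF-kappaB target of the TNF receptor pathway, was lower by edgeR (-0.80 ± 0.20, adjusted p = 0.00405) but not called by DESeq2 (adjusted p = 0.169).

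Of 22 inflammatory cytokine genes, 13 had enough counts to be tested. Of these, 10 were lower and none higher (median -0.88), and *Il1rn*, *Tgfb1* and *Tnfsf9* were not called. *Il6*, the pyrogenic cytokine (ENSMUSG00000025746, chromosome 5, 30013114 to 30019981, plus strand), was at 52.0, 47.7, 27.7, 12.0 and 25.8 CPM in young and 3.58, 4.04, 11.7, 3.56 and 2.82 CPM in aged cultures, a 6.31-fold lower level (-2.66 ± 0.39, adjusted p = 4.43e-05). Aged culture 3 came close to young culture 4 without reaching it. *Il27*, a cytokine of the IL-12 family, was at 29.1, 29.0, 22.8, 7.09 and 12.2 CPM in young and 0.843, 1.73, 4.21, 2.09 and 0.796 CPM in aged cultures (-3.35 ± 0.41, adjusted p = 8.96e-06), 10.2-fold lower. It overlaps *Apobr* on the opposite strand over 103 exon bases. *Tnf* was at 1124, 836, 872, 614 and 666 CPM in young and 424, 401, 576, 417 and 418 CPM in aged cultures (-0.88 ± 0.15, adjusted p = 9.15e-05), with no overlap. *Csf3*, which encodes the granulocyte growth factor G-CSF, showed a smaller difference (-0.61 ± 0.15, adjusted p = 0.00552), with 63.1 to 95.9 CPM in young and 40.0 to 70.9 CPM in aged cultures. *Il10* had at most 5 counts in any LPS library and was not tested.

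Chemokines, which draw leukocytes to a site, were lower in 8 of 12 tested genes and higher in 1 (median -0.77). *Ccl5*, which attracts T cells and monocytes, was at 462, 449, 329, 216 and 272 CPM in young and 45.3, 51.5, 131, 52.8 and 54.9 CPM in aged cultures (-2.36 ± 0.24, adjusted p = 3.84e-07), 5.13-fold lower. *Cxcl2*, which attracts neutrophils, was at 123 to 303 CPM in young and 41.5 to 67.5 CPM in aged cultures (-2.02 ± 0.25, adjusted p = 8.12e-06). *Ccl9* was 3.67-fold lower (-1.88 ± 0.30), with 69.3 to 261 CPM in young and 24.0 to 74.9 CPM in aged cultures. The 1 chemokine with a higher level was *Cxcl14*, at 22.5, 24.7, 22.3, 25.5 and 27.9 CPM in young and 40.8, 41.9, 38.1, 39.9 and 40.7 CPM in aged cultures (0.71 ± 0.07, adjusted p = 4.16e-07). Its ranges did not overlap, and neither did those of *Ccl5* and *Cxcl2*. *Cxcr4*, the receptor of CXCL12, was higher as well (1.34 ± 0.16, adjusted p = 2.56e-06, 2.55 to 4.05 against 6.68 to 8.68 CPM).

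Of 13 genes for nitric oxide, itaconate and prostaglandin synthesis, 6 were lower and none higher (median -0.32). *Nos2*, the inducible nitric oxide synthase, was at 431, 355, 358, 130.4 and 224 CPM in young and 65.7, 74.7, 220.1, 87.3 and 62.2 CPM in aged cultures (-1.55 ± 0.31, adjusted p = 0.000636). Aged culture 3 overlapped with young culture 4. *Tbxas1*, which makes thromboxane, was 2.07-fold lower (-1.05 ± 0.22, adjusted p = 0.00101). *Acod1*, the enzyme that makes itaconate, was at 3176, 3893, 3583, 3492 and 3623 CPM in young and 2364, 1914, 2097, 1838 and 2321 CPM in aged cultures. These ranges did not overlap, yet the difference was not called (-0.75 ± 0.34, adjusted p = 0.0996). It was called with the batch as a block (adjusted p = 0.0375) and when only the LPS libraries were fitted (adjusted p = 4.80e-05). The acute-phase gene *Saa3* was likewise called only with the block (-0.59 ± 0.23, adjusted p = 0.0621, with the block 0.0497) and in 7 other fits.

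**Figure D3:**
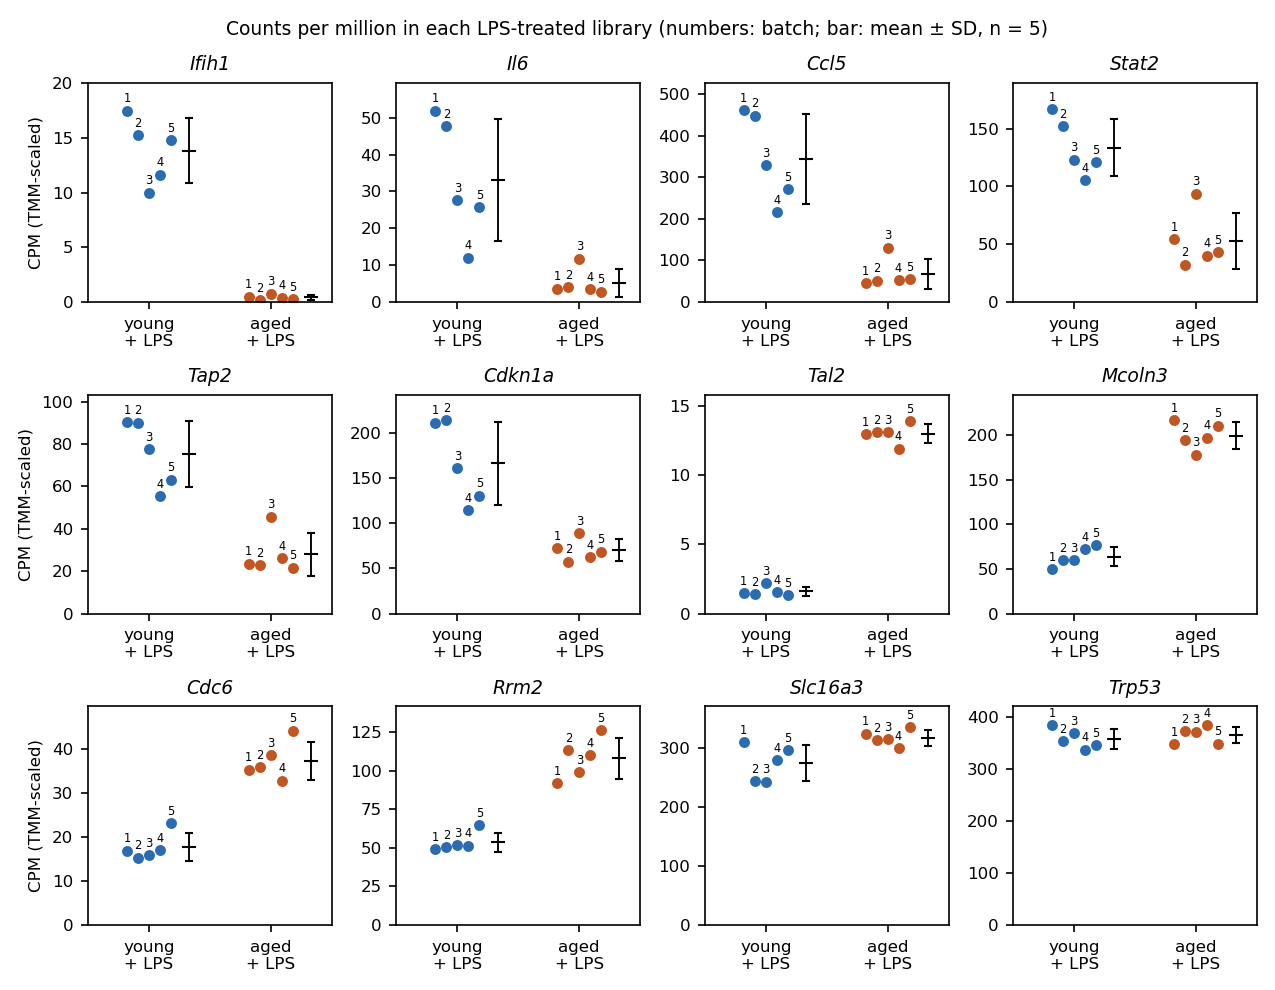
CPM of 12 genes in the 5 young and 5 aged LPS cultures on linear axes from 0; each point is 1 culture, numbered by batch, and the bar beside it is the mean with its SD (n = 5). *Ifih1*, *Il6*, *Ccl5*, *Stat2*, *Tap2* and *Cdkn1a* lie lower in every aged culture than in any young one, *Tal2*, *Mcoln3*, *Cdc6* and *Rrm2* lie higher, and the ranges of *Slc16a3* and *Trp53* overlap.

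In the inflammasome list, 6 of 11 tested genes were lower and none higher (median -0.64). *Gsdmd*, the pore former of pyroptosis, was at 71.5 to 96.2 CPM in young and 43.2 to 54.5 CPM in aged cultures (-0.86 ± 0.08, adjusted p = 6.51e-08). *Casp4*, the caspase that binds intracellular LPS, was at 54.2 to 70.7 against 30.1 to 47.2 CPM (-0.74 ± 0.11, adjusted p = 2.63e-05). Neither gene's ranges overlapped. Of 16 genes for Fc receptors and complement, 11 were lower and none higher (median -0.69). *Fcgr4*, an activating receptor for IgG, was 2.49-fold lower (-1.32 ± 0.24, adjusted p = 0.000249). *Cfb*, complement factor B, was at 31.6 to 89.3 CPM in young and 4.14 to 17.4 CPM in aged cultures (-2.89 ± 0.30, adjusted p = 4.74e-07). It shares 2246 exon bases with the predicted gene *Gm20547* on the same strand, and the counts of the pair were within a ratio of 1.15, so the 2 cannot be told apart.

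Of 14 genes for scavenger receptors and C-type lectins, 10 were lower and none higher (median -0.64). *Marco*, which binds bacteria, was at 29.8, 41.4, 57.0, 33.8 and 26.7 CPM in young and 6.95, 8.00, 6.90, 5.96 and 8.46 CPM in aged cultures (-2.38 ± 0.19, adjusted p = 9.87e-09). *Msr1*, a scavenger receptor for modified lipoproteins, was lower too (-0.98 ± 0.24, adjusted p = 0.00401). Of 13 integrin and adhesion genes, 9 were lower (median -0.42). *Itgal*, the alpha chain of LFA-1, was at 165 to 263 CPM in young and 99.1 to 119 CPM in aged cultures (-0.98 ± 0.12, adjusted p = 3.79e-06), with no overlap. *Icam1*, the ligand of LFA-1, was lower (-0.61 ± 0.17, adjusted p = 0.0108), but not without batch 1 (-0.39, adjusted p = 0.115) or batch 2 (adjusted p = 0.0744). Of 15 extracellular proteases and inhibitors, 9 were lower (median -0.64), among them *Mmp13*, a collagenase (-1.53 ± 0.29, adjusted p = 0.000334, 2.54 to 6.14 against 0.796 to 2.14 CPM).

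Of the 7 tested genes of the phagocyte NADPH oxidase, which makes superoxide, 5 were lower (median -0.29). *Cybb*, its catalytic subunit, was at 2662, 2657, 2411, 2139.8 and 2425 CPM in young and 1412, 1647, 1799, 1617 and 1554 CPM in aged cultures (-0.61 ± 0.09, adjusted p = 1.34e-05), and *Ncf1*, an organiser subunit, at 473 to 602 against 385 to 412 CPM (-0.46 ± 0.06, adjusted p = 4.33e-06). Both were without overlap, although *Ncf1* shares 408 exon bases with *Gtf2ird2* on the opposite strand. Of 18 AP-1, EGR and myeloid transcription factors, 7 were lower and none higher (median -0.29). *Junb*, an AP-1 subunit that shares 173 exon bases with *Prdx2*, fell from 194 to 279 CPM in young to 149.5 to 191 CPM in aged cultures (-0.60 ± 0.08, adjusted p = 9.98e-06).

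Of 13 homeostatic microglia genes tested, 6 were lower and 1 higher (median -0.41). *P2ry6*, a receptor for UDP that triggers phagocytosis, was at 14.4, 12.9, 17.2, 6.12 and 9.14 CPM in young and 3.86, 6.19, 8.55, 4.80 and 4.85 CPM in aged cultures (-1.08 ± 0.24, adjusted p = 0.00179), with some overlap. *P2ry13*, a receptor for ADP, was at 0.593 to 1.93 CPM in young and 0.140 to 0.619 CPM in aged cultures (-1.53 ± 0.43, adjusted p = 0.0102), a call lost without batch 3 (adjusted p = 0.0707). *P2ry12*, the related ADP receptor, had at most 6 counts in a young and 2 in an aged LPS culture and was not called (adjusted p = 0.286). *Tmem119* was the higher member (0.62 ± 0.23, adjusted p = 0.0459), at 1.66 to 3.56 against 2.32 to 4.83 CPM. That call was lost in 16 of the 24 alternative fits, and without batch 3 the change was 0.36 (adjusted p = 0.245). Of 21 disease-associated microglia genes, 7 were lower and none higher (median -0.24), and 13 were lower without aged culture 3 and young culture 4. *Axl*, a receptor for apoptotic cells, was 3.96-fold lower (-1.99 ± 0.27, adjusted p = 1.07e-05), and *Cd52*, a small surface glycoprotein, 2.68-fold lower (-1.42 ± 0.29, adjusted p = 0.000819). *Cd52* shares 172 exon bases with *Crybg2* on the opposite strand.

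**Figure D4:**
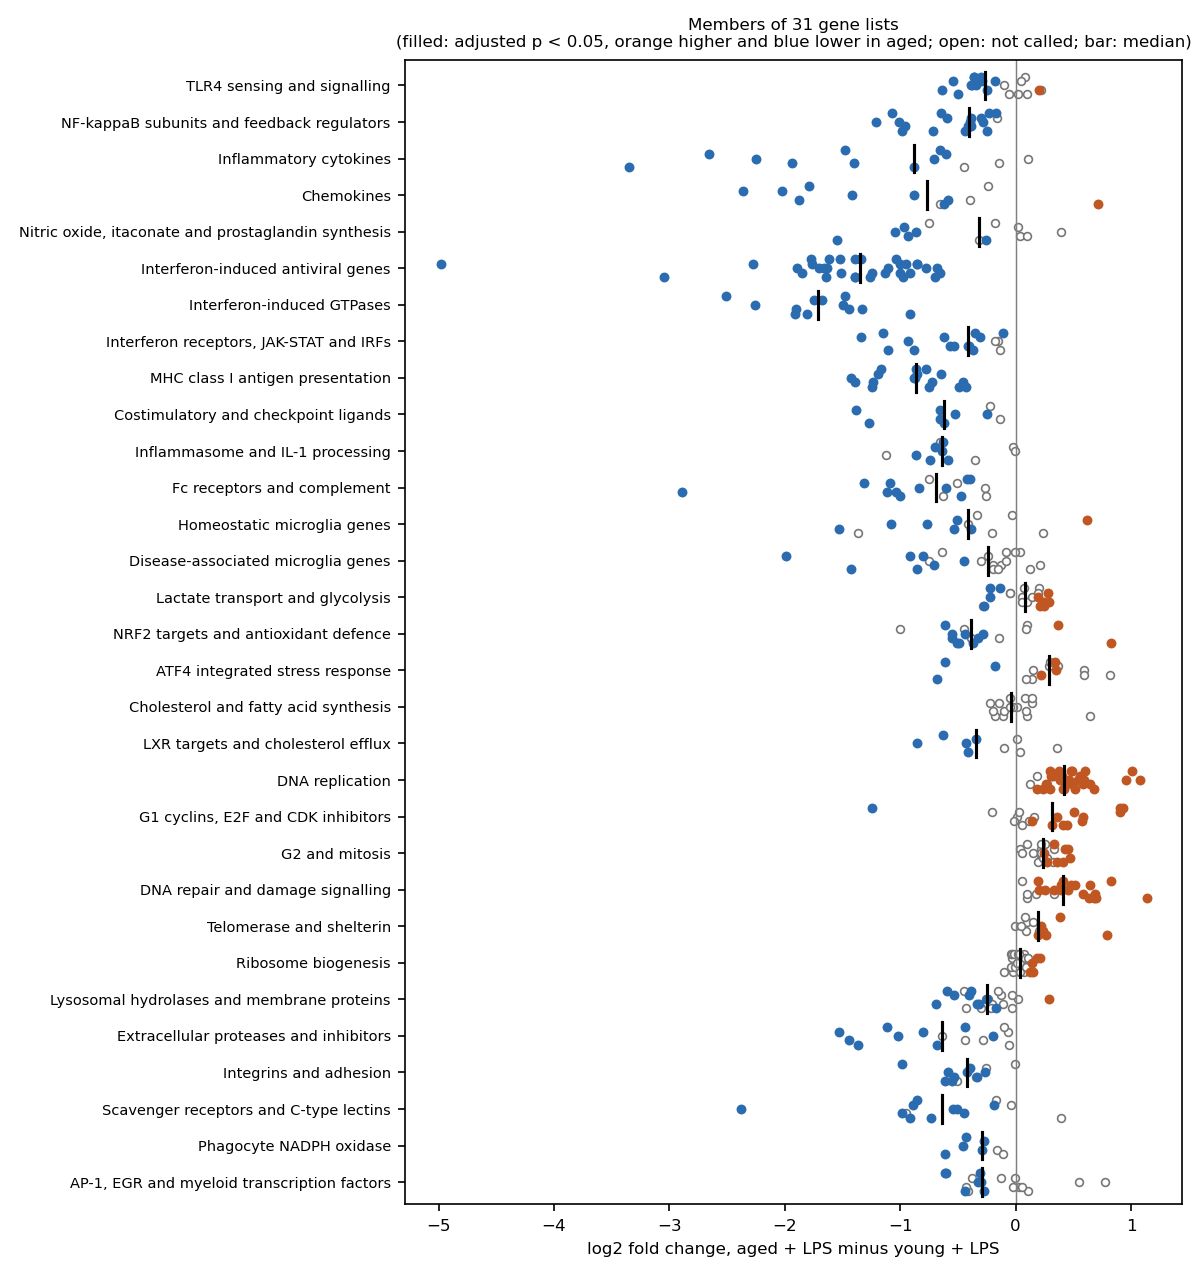
Log2 fold change, aged minus young under LPS, of the tested members of the 31 gene lists; each point is 1 gene, filled where its adjusted p is below 0.05 (orange higher, blue lower in aged) and open where not called, and the vertical mark is the list's median. The interferon lists lie lowest, with medians of -1.71 and -1.35, and DNA replication, at 0.42, lies highest.

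The opposite direction was seen in genes of DNA synthesis. Of 33 DNA replication genes tested, 30 were higher and none lower (median 0.42), and *Gins2*, *Gins4* and *Mcm10* were not called. In 19 of the 33 genes the groups did not overlap. The 6 subunits of the MCM2-7 helicase, which unwinds DNA, were higher by 0.38 to 0.68 (median 0.58), the 6 polymerase and primase subunits by a median of 0.47, and PCNA with its 3 replication factor C loaders by a median of 0.30. These subgroups were formed after the values were seen.

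*Cdc6*, which loads the MCM helicase onto origins (ENSMUSG00000017499, chromosome 11, 98907801 to 98923940, plus strand), was at 16.9, 15.3, 15.8, 17.0 and 23.1 CPM in young and 35.3, 35.8, 38.6, 32.8 and 44.1 CPM in aged cultures, a 2.12-fold higher level (1.08 ± 0.13, adjusted p = 2.56e-06). *Rrm2*, a subunit of ribonucleotide reductase, which supplies deoxynucleotides, was at 49.2, 50.4, 51.8, 51.4 and 64.9 CPM in young and 91.9, 113, 99.3, 110.3 and 126 CPM in aged cultures (1.01 ± 0.11, adjusted p = 6.09e-07). Neither gene's ranges overlapped. Without LPS the 2 ages had like levels of both, with means of 48.6 and 49.7 CPM for *Cdc6* and 152 and 165 CPM for *Rrm2* in young and aged cultures, and neither was called.

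The same held for the list. Its mean level in log2 CPM was 6.76 ± 0.09 (SD, n = 5) in young and 6.76 ± 0.08 in aged untreated cultures, and under LPS 5.90 ± 0.11 in young and 6.37 ± 0.07 in aged cultures. The mean was lower with LPS in both ages, by less in aged cultures. In a test of that difference, the interaction of age and LPS, 22 of the 33 genes were called (24 with the batch as a block). All 22 had a positive sign, beside 4.12% of all tested genes. None was called in the untreated comparison, beside 11.5% of all tested genes.

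Of 19 genes for G1 cyclins, E2F proteins and CDK inhibitors, 11 were higher and 1 lower (median 0.32). *Ccne1* and *Ccne2* encode the E-type cyclins of S-phase entry. *Ccne1* was at 12.6, 20.2, 20.6, 19.6 and 24.8 CPM in young and 31.4, 39.3, 34.3, 35.3 and 44.3 CPM in aged cultures (0.90 ± 0.13, adjusted p = 1.19e-05), and *Ccne2*, which shares 609 exon bases with *Ints8*, was higher by 0.93 ± 0.16 (adjusted p = 0.00014). The 1 lower gene was *Cdkn1a*, which encodes the cyclin-dependent kinase inhibitor p21. It was at 211, 214, 160.3, 115 and 130.1 CPM in young and 72.2, 57.2, 89.1, 62.1 and 68.2 CPM in aged cultures (-1.25 ± 0.14, adjusted p = 9.86e-07), with no overlap. *Cdkn2a*, which encodes p16 and p19ARF, stood at 41.6 to 51.7 CPM in young and 39.2 to 50.4 CPM in aged cultures (-0.02 ± 0.08, adjusted p = 0.908). *Trp53* stood at 336 to 383 CPM in young and 348 to 383 CPM in aged cultures (0.03 ± 0.06, adjusted p = 0.748). Neither was called, and the sign of both changed between fits.

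In DNA repair and damage signalling, 18 of 23 genes were higher and none lower (median 0.41), and 12 had no overlap. *Ung*, the uracil DNA glycosylase, was at 6.62, 12.6, 11.6, 16.4 and 21.4 CPM in young and 32.8, 28.3, 28.1, 24.6 and 38.8 CPM in aged cultures (1.14 ± 0.20, adjusted p = 0.000181). *Exo1*, an exonuclease of mismatch repair, was at 25.0 to 32.0 CPM in young and 39.7 to 54.0 CPM in aged cultures (0.82 ± 0.08, adjusted p = 1.88e-07). Of 10 homologous recombination and Fanconi genes 9 were higher, and of 4 mismatch repair genes 4 were, subgroups formed after the values were seen. The interaction was called in 15 of the 23 repair genes (13 with the batch as a block), all positive, beside 4.12% of all tested genes. No repair gene was called without LPS, beside 11.5% of all tested genes.

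Counts for genes of G2 and mitosis depended on single cultures and batches. Of 24 tested, 8 were higher and none lower (median 0.24), and 1 had no overlap. The count was 2 without batch 2, 19 without young culture 1, 23 without batch 1 and 17 with library size alone. *Cdc25c*, the phosphatase that triggers mitosis, was higher by 0.47 ± 0.12 (adjusted p = 0.00456, and 0.0538 without batch 2), and *Ttk*, a kinase of the spindle checkpoint, by 0.46 ± 0.13 (adjusted p = 0.00939, and 0.127 without batch 2). Of 13 telomerase and shelterin genes, 6 were higher (median 0.20), a count that ranged from 2 to 10 over the other fits. *Tert*, the telomerase catalytic subunit, was at 0.442 to 1.58 CPM in young and 0.990 to 2.07 CPM in aged cultures (0.79 ± 0.27, adjusted p = 0.0286). Its groups overlapped, and the call was lost without aged culture 3 (adjusted p = 0.0885) or young culture 5 (adjusted p = 0.0866). *Pot1a*, which caps telomeres, was at 11.0 to 14.9 CPM in young and 15.5 to 18.5 CPM in aged cultures (0.38 ± 0.08, adjusted p = 0.000881), with no overlap.

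Of the ribosome biogenesis genes, 5 of 32 were higher under LPS (median 0.04), a share near the 14% of all tested genes. Among the 5 were *Rrp12* (0.21 ± 0.06, adjusted p = 0.0058) and *Utp20* (0.19 ± 0.05, adjusted p = 0.0102), both factors of small-subunit processing. The call of *Utp20* was lost without batch 2 (adjusted p = 0.0677), and the list's count was 1 without batch 2 and 14 with library size alone. In untreated cultures 16 of the 32 were higher, beside 3.71% of all tested genes.

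Some metabolic and stress lists had calls in both directions. Of 20 genes for lactate transport and glycolysis, 6 were higher and 4 lower (median 0.08), beside 14% and 15% of all tested genes. With library size alone 10 were higher and 1 lower. *Slc16a3*, which encodes the lactate exporter MCT4, was at 310.5, 244, 244, 280.3 and 297 CPM in young and 325, 314, 315, 300.3 and 336 CPM in aged cultures (0.21 ± 0.06, adjusted p = 0.0165). Its groups overlapped at young culture 1, and the call was lost without young culture 2 (adjusted p = 0.0613) or young culture 3 (adjusted p = 0.0595). *Slc16a1*, which encodes the transporter MCT1, was at 320.1 to 355 CPM in young and 371 to 460.2 CPM in aged cultures (0.29 ± 0.06, adjusted p = 0.000573). *Pfkm*, a phosphofructokinase, was higher (0.28 ± 0.06, adjusted p = 0.00226, and 0.18 without aged culture 3 and young culture 4), while *Pfkfb3*, which makes its activator, was lower (-0.28 ± 0.07, adjusted p = 0.00358). *Slc2a1*, the glucose transporter GLUT1, was lower (-0.22 ± 0.07, adjusted p = 0.0227), a call lost in 12 of the 24 other fits, among them those without aged culture 2 (adjusted p = 0.0687) and aged culture 3 (adjusted p = 0.0626).

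Of 17 NRF2 targets and antioxidant genes, 9 were lower and 2 higher (median -0.39). *Prdx1*, a peroxiredoxin, was at 889, 1518, 1179, 1385 and 1617 CPM in young and 963, 819, 691, 756 and 1094 CPM in aged cultures (-0.61 ± 0.13, adjusted p = 0.000998), with the groups overlapping at young culture 1. *Sqstm1*, the autophagy receptor p62, had the same low young culture 1 (-0.55 ± 0.12, adjusted p = 0.00185). The 2 higher members were the metallothioneins *Mt2* (0.83 ± 0.15, adjusted p = 0.000263) and *Mt1* (0.37 ± 0.09, adjusted p = 0.00345), which bind zinc and copper. Of 15 ATF4 targets, 3 were higher and 3 lower, shares not far from the 14% and 15% of all tested genes. Their median was 0.29, and without batch 1 it was -0.01. *Slc7a5*, an amino acid transporter, was higher (0.35 ± 0.10, adjusted p = 0.0134), but not without batch 1 (adjusted p = 0.0814) or batch 2 (adjusted p = 0.105). *Aldh18a1*, an enzyme of proline synthesis, was higher too (0.34 ± 0.09, adjusted p = 0.00691). *Ppp1r15a*, which encodes GADD34 (-0.68 ± 0.09, adjusted p = 9.61e-06), and the stress transcription factor *Atf3* (-0.61 ± 0.08, adjusted p = 5.86e-06) were lower, the latter with 338 to 420.3 CPM in young and 223 to 305 CPM in aged cultures.

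None of the 16 cholesterol and fatty acid synthesis genes tested was called. In other fits up to 3 were higher (3 without aged culture 3, without batch 3, and without aged culture 3 and young culture 4), and 1 was lower without batch 1. Of 9 LXR targets, 5 were lower (median -0.34), among them *Apoe*, the lipid carrier (-0.86 ± 0.16, adjusted p = 0.000349, 1467 to 2685 against 1008 to 1693 CPM), and *Mylip*, which degrades the LDL receptor (-0.63 ± 0.09, adjusted p = 1.69e-05). Of 23 lysosomal genes, 9 were lower and 1 higher (median -0.24), and 17 were lower without aged culture 3 and young culture 4, and 5 without aged culture 1. *Ctsh*, a cathepsin (-0.69 ± 0.10, adjusted p = 1.34e-05), and *Lipa*, the acid lipase (-0.60 ± 0.08, adjusted p = 9.61e-06), were lower, and *Neu1*, a sialidase, was the higher member (0.29 ± 0.05, adjusted p = 0.000293), at 156 to 178 against 198 to 214 CPM.

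The 12 largest increases belonged to genes outside these lists, and 10 of the 12 were higher in aged cultures without LPS as well. *Tal2*, a transcription factor (ENSMUSG00000028417, chromosome 4, 53779705 to 53788712, plus strand), was at 1.48, 1.41, 2.21, 1.57 and 1.33 CPM in young and 13.0, 13.1, 13.1, 11.9 and 13.9 CPM in aged cultures, 8.03-fold higher (3.01 ± 0.14, adjusted p = 9.92e-12). *Trpm6*, a magnesium channel, was 7.98-fold higher (3.00 ± 0.19, 0.593 to 1.59 against 7.02 to 10.4 CPM). *Mcoln3*, a cation channel of endosomes and lysosomes, was at 49.99, 59.8, 59.6, 72.2 and 76.7 CPM in young and 217, 195, 178, 197 and 210.3 CPM in aged cultures (1.64 ± 0.08, adjusted p = 1.29e-11). None of the 3 overlapped, and without LPS their differences were 3.09, 3.17 and 1.29 on the log2 scale, all called.

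Others in the same set were *Ephb2*, a receptor for ephrins (2.37 ± 0.18), *Slc9a4*, a sodium-proton exchanger (1.80 ± 0.14), *Nxn*, the redox protein nucleoredoxin (1.53 ± 0.14), *Myom3*, a myomesin (1.49 ± 0.20), and *Ush1c*, the scaffold harmonin (1.42 ± 0.10), all 5 higher without LPS too. *Mical1*, an actin-oxidising enzyme that shares 905 exon bases with *Smpd2* (1.40 ± 0.19, adjusted p = 1.16e-05), *Cxcr4*, *Ppp1r26* (1.23 ± 0.22) and *Ier5l* (1.17 ± 0.13) completed the 12. Of these 4, *Mical1* and *Cxcr4* were not called without LPS. All 12 genes had more CPM in each of the 5 aged than in any of the 5 young LPS cultures, which the rule required.

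*Rhox5*, *Ppic* and *Met*, among the 12 largest decreases, were lower without LPS as well. They are in none of the lists, and neither are *Sp110*, *Sp140* and *Slamf7*, named above. *Rhox5*, a homeobox gene of the X chromosome (ENSMUSG00000095180, 37804842 to 37808876, plus strand), was at 44.8, 39.3, 25.6, 36.3 and 41.3 CPM in young and 5.48, 5.77, 6.90, 5.73 and 6.58 CPM in aged cultures (-2.61 ± 0.15, adjusted p = 8.80e-11), and its untreated difference was -2.68. *Ppic*, a cyclophilin, was 6.44-fold lower (-2.69 ± 0.18, -2.65 without LPS). *Met*, the receptor of hepatocyte growth factor, was at 31.3, 30.2, 25.7, 17.2 and 21.4 CPM in young and 2.11, 2.56, 4.00, 2.09 and 2.17 CPM in aged cultures (-3.27 ± 0.19, adjusted p = 8.80e-11, and -2.65 without LPS). The levels of *Rhox5* and *Ppic* differed between the ages by nearly the same factor in both conditions.

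Without LPS, aged and young cultures differed in 1475 genes (11.5%), 475 higher (3.71%) and 1000 lower (7.81%), and with the batch as a block in 2204, 768 of them higher. With library size alone 42.2% of the calls were higher, against 32.2%, and without batch 2 the count was 548. The untreated and the LPS comparison share batch numbers but no library. Of the 1794 genes that were higher under LPS, 249 were also higher without it, which is 13.9% of the former and 52.4% of the 475 untreated calls. Of the 1923 lower genes 603 were also lower without it, which is 31.4% of the former and 60.3% of the untreated calls. Between the comparisons, 34 genes were higher under LPS and lower without it, and 6 the reverse. The sign without LPS was the same for 72.8% of the higher and 87.2% of the lower DEGs, with median untreated log2 fold changes of 0.08 and -0.20. Across the 12799 genes, which are not independent of each other, the 2 differences had a Pearson correlation of 0.62 and a Spearman correlation of 0.46.

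**Figure D5:**
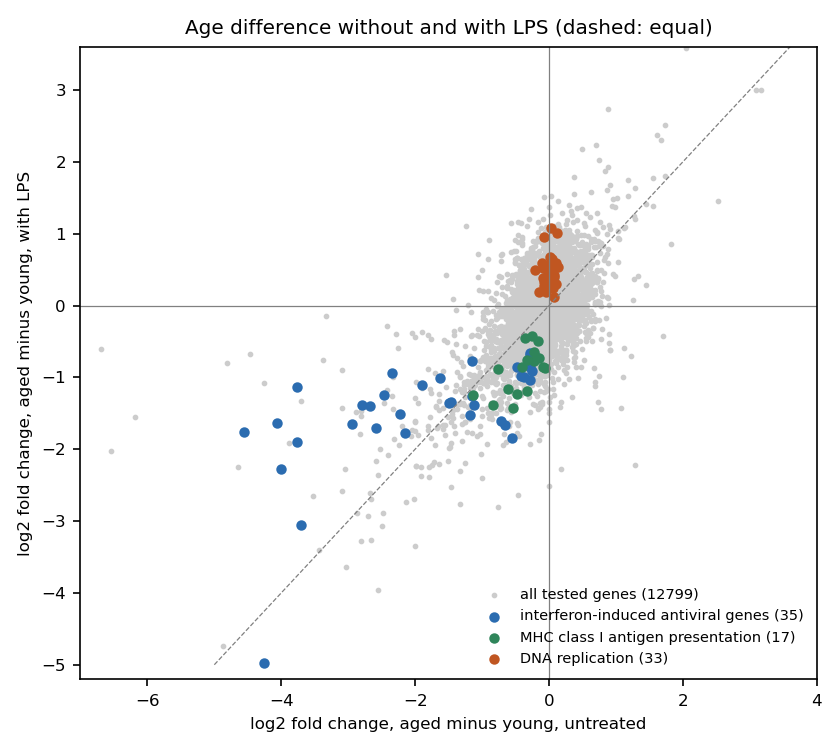
Log2 fold change aged minus young for each tested gene, with LPS on the vertical and without LPS on the horizontal axis; grey points are the 12799 tested genes, colours mark 3 lists, the dashed line marks equal differences, and 2 genes lie outside the axes. The 33 DNA replication genes lie near 0 on the horizontal axis and above 0 on the vertical one, and antiviral genes with no counts in untreated aged cultures have horizontal values that are not interpretable folds.

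The interaction of age and LPS, which tests whether the response to LPS differed between the ages, was called in 818 genes (6.39%), 527 with a positive (4.12%) and 291 with a negative sign (2.27%). LPS changed 8270 genes (64.6%) in young and 6968 genes (54.4%) in aged cultures. The count of interactions depended on single batches. It was 189 without batch 2, 532 without batch 4 and 410 without batch 5, and 1408 without aged culture 3 and young culture 4. Of these, 189, 499, 397 and 771 were among the 818. All of those kept their sign, which could hardly be otherwise for genes called in both fits, since the fits share most libraries. With library size alone 81.3% of the interactions were positive, against 64.4%.

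*Cxcr4* had one of the largest interactions. LPS lowered it in both ages, from a mean of 48.5 CPM in young and 40.5 CPM in aged untreated cultures to 2.55 to 4.05 and 6.68 to 8.68 CPM, and the interaction was 1.60 ± 0.19 (adjusted p = 6.46e-05). *Mical1* (1.10 ± 0.24, adjusted p = 0.00629), *Cdc6* (1.05 ± 0.18, adjusted p = 0.00093) and *Rrm2* (0.89 ± 0.15, adjusted p = 0.000887) were of the same kind, with less of a decrease by LPS in aged cultures. Of these 4, *Mical1* lost its call without batch 2 (adjusted p = 0.0636).

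A second kind rose less with LPS in aged cultures. *Stat2* stood at means of 12.3 and 11.4 CPM in untreated young and aged cultures, and its interaction was -1.23 ± 0.30 (adjusted p = 0.0155). *Cdkn1a* (-0.83 ± 0.21, adjusted p = 0.0161), *Zfp36* (-0.72 ± 0.17, adjusted p = 0.0135) and *Sp140* (-1.41 ± 0.34, adjusted p = 0.0142) were called as well. All 4 calls were lost without batch 1, 2 or 5, with an adjusted p of 0.0515 to 0.154. *Gsdmd* had a smaller interaction (-0.51 ± 0.11, adjusted p = 0.00675), and its call was lost without batch 1 (adjusted p = 0.0657) or batch 2 (adjusted p = 0.0503). *Rilpl1*, a Rab-binding protein of the RILP family, and *Ccl9* had untreated means of 3.13 and 13.6 CPM in young and 2.86 and 12.2 CPM in aged cultures. Their interactions were -1.68 ± 0.48 (adjusted p = 0.0392) and -1.72 ± 0.47 (adjusted p = 0.0285), calls lost without young culture 2 (adjusted p = 0.075 and 0.0546) and without some other single libraries. *Acss2*, which makes acetyl-CoA from acetate and shares 395 exon bases with *Gss*, had an interaction of -1.31 ± 0.38 (adjusted p = 0.0405), a call lost without any of 7 single libraries (adjusted p up to 0.08). *Phf11c* had one of -1.44 ± 0.40 (adjusted p = 0.0328), lost without any of 5 single libraries (adjusted p up to 0.0556).

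Another kind was lower in aged cultures before LPS and came nearer to the young level with it. *Acod1* had untreated means of 41.9 CPM in young and 4.07 CPM in aged cultures, and its interaction was 2.63 ± 0.57 (adjusted p = 0.00669). *Saa3* had untreated means of 8.77 and 1.81 CPM and an interaction of 1.67 ± 0.49 (adjusted p = 0.045). *Csf3* had 0 counts in every untreated aged culture and up to 25 counts in an untreated young one, and *Traf1* at most 3 and 83 counts, with interactions called at an adjusted p of 0.00718 and 0.0208. A fold change against groups at the floor is not given for these 2. The call of *Saa3* was lost on leaving out any of 7 single libraries (adjusted p up to 0.077), and that of *Traf1* without batch 2 or 5.

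Matches to 5 motifs were counted in the RefSeq promoters of the tested genes, from 250 bases before to 50 bases after the start, on both strands. A promoter was matched for 9025 of the 12799 genes (11508 promoters). The ISRE was in 3.26% of all promoters, in 6.94% of those of lower DEGs, in 21.4% of those of genes at least 2-fold lower and in 2.24% of those of higher DEGs. By list, it was in a promoter of 15 of 25 antiviral genes and 8 of 9 interferon-induced GTPases with a promoter. Counted by gene in the same way, it was in 3.94% of all tested genes with a promoter. The E2F motif, searched as TTTCCCGC, TTTGGCGC or TTTCGCGC, was in 3.63% of all promoters, 7.69% of those of higher DEGs, 11.4% of those of genes with a positive interaction and 1.45% of those of lower DEGs. It was in a promoter of 13 of 27 DNA replication genes, beside 4.39% of all tested genes with a promoter. The AP-1 motif TGANTCA was in 5.16% of all promoters, 7.46% of those of lower DEGs, 15.9% of those of genes at least 2-fold lower and 4.09% of those of higher DEGs. In the same order, the NF-kappaB motif was in 6.47%, 8.23%, 9.42% and 6.49%, and the cyclic AMP response element TGACGTCA in 3.17%, 2.69%, 1.81% and 3.33%. The E2F motif was in 1.45% of the promoters of genes at least 2-fold lower. The motifs may overlap each other, and promoters of 1 gene can share bases.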

How the data were processed

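RNA-Seq was made from 20 BV-2 cultures, 5 in each of 4 groups, with a stranded mRNA kit. The deposited values are counts per gene: per the labels, the authors checked reads with FastQC 0.11.8, aligned them with STAR 2.6.1d and counted them with featureCounts 1.5.1 on GRCm38. The strand setting of the counting is not given in the sources used here, so overlapping genes on opposite strands may share reads.

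Counts were fitted with edgeR 4.0.16 (R 4.3.3) by group over all 20 libraries, after filterByExpr and with TMM factors. Its quasi-likelihood F-test was adjusted by the Benjamini-Hochberg method over the 12799 genes tested. CPM are TMM-scaled. On data simulated for the aged against young LPS comparison, with 200 genes changed 2-fold, 196 were recovered with 7 false calls among 12640 tested. The changed genes were drawn from those of higher level, without a batch effect, and were a far smaller share than the DEGs here. These rates therefore need not hold for the real data or for genes near the floor.

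Replicate numbers are batch labels and pair the samples: deviations of same-numbered untreated and LPS cultures had mean correlations of 0.28 (young) and 0.26 (aged), and young and aged LPS cultures 0.04. The block was an alternative, as were DESeq2 1.42.0, other scalings and filters, the LPS libraries alone, leaving out each library, and, chosen after seeing the data, leaving out each batch or 2 libraries that stood apart.

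Genes were named by rule: the 12 largest changes each way without overlap and with a mean log2 CPM of at least 1, the 2 largest per list and direction, the 5 largest interactions each way, and 13 genes the study discusses, leaving predicted genes unnamed except as neighbours. All members and lists were chosen with earlier results of these data known. Counting error alone sets the floor of 3 counts. Near-identical gene copies are uncertain. The values of some genes are not reported here.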

Additional observations from a re-analysis of the deposited data

Results flagged for a closer look

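One culture far from the other 4 of its group was found for 15 of the 210 groups of 5 values examined for the named genes and the library measures. Chance would give about 1 in 20, or 10.5. Of the 15, 10 were aged culture 3, always as the highest aged culture. Its level was 10.8 CPM for *Ifi205*, 11.7 CPM for *Il6*, 12.0 CPM for *Sp140*, 72.8 CPM for *Zfp36*, 131 CPM for *Ccl5*, 220.1 CPM for *Nos2*, 45.7 CPM for *Tap2*, 107 CPM for *Cd274*, 1693 CPM for *Apoe* and 576 CPM for *Tnf*. All 10 genes were lower in aged LPS cultures with this culture in the fit. Without this culture there were 3937 DEGs instead of 3717.

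The other 5 were young culture 4 for *Atf3* (338 CPM, lowest), young culture 5 for *Cdc6* (23.1 CPM, highest) and *Rrm2* (64.9 CPM, highest), aged culture 1 for *Exo1* (39.7 CPM, lowest) and young culture 1 for *Acss2* (5.93 CPM, lowest).

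The response to LPS differed between the ages, by the interaction term of the edgeR fit, in 26 of the named genes. A positive interaction in genes of S phase was seen for *Cdc6* (1.05), *Ung* (0.99), *Rrm2* (0.89), *Ccne2* (0.88), *Exo1* (0.67), *Ccne1* (0.61) and, among telomere genes, *Pot1a* (0.38). *Cxcr4* (1.60), *Mical1* (1.10) and *Ier5l* (0.82) were positive as well. *Acod1* (2.63) and *Saa3* (1.67) were positive from a lower untreated level in aged cultures, and *Csf3* (adjusted p = 0.00718) and *Traf1* (adjusted p = 0.0208) were at or near the floor in untreated aged cultures, so no size is given.

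A negative interaction was seen for *Ccl9* (-1.72), *Rilpl1* (-1.68), *Phf11c* (-1.44), *Sp140* (-1.41), *Acss2* (-1.31), *Stat2* (-1.23), *Cd274* (-1.17), *Cdkn1a* (-0.83), *Zfp36* (-0.72), *Mylip* (-0.55), *Gsdmd* (-0.51) and *Junb* (-0.43). Many of these genes were named for their differences in the same libraries, and 19 of the 26 calls were lost without batch 2. Leaving out 1 library also ended the call of *Cd274* (7 of 10 libraries, adjusted p up to 0.091), *Junb* (5, up to 0.0648), *Pot1a* (5, up to 0.078), *Ccne1* (3, up to 0.0641) and *Ung* (3, up to 0.0603), besides *Saa3* (7), *Acss2* (7), *Rilpl1* (6), *Phf11c* (5) and *Ccl9* (4). The cause of none of these differences was tested.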

How the results depend on the processing

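Of 3717 DEGs under LPS, 1289 had a log2 fold change of at least 0.5 in size. Leaving out 1 library or batch gave 2156 to 3937 DEGs, the lowest without batch 2, and leaving out aged culture 3 and young culture 4 gave 4118. The untreated comparison (1475) gave 548 to 1193 DEGs without 1 batch, the lowest without batch 2. The interaction (818) gave 189 to 1069 without 1 library or batch, and 1408 without aged culture 3 and young culture 4. Library size alone raised the higher share from 48.3% to 70.1% under LPS, from 32.2% to 42.2% without LPS and from 64.4% to 81.3% for the interaction. DESeq2 called 3732 DEGs under LPS and 1041 interactions. With the batch as a block there were 4280 DEGs under LPS, 3690 of them shared with the 3717, 2204 without LPS and 1156 interactions. Among the 104 named genes the block over all 20 libraries changed the call under LPS for *Acod1* and *Saa3* and no other. The cause of these shifts was not tested. Leaving out whole batches, and leaving out the 2 cultures nearest to the opposite group, were chosen after seeing the data.

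Of the 97 named genes called under LPS, 13 lost the call in at least 1 of 24 alternatives and none changed direction. Genes that were not called did. *Cdkn2a* (-0.02) was at 0.065 with library size alone, at 0.025 without aged culture 3 and young culture 4, and at -0.069 to 0.042 without 1 library or batch. *Trp53* was at -0.010 to 0.075 and *Tlr4* at -0.028 to 0.21 without 1 library or batch. The median of the cholesterol list (-0.04) was positive in 9 alternatives. Requiring 10 counts in every library lowered the tested and the lower genes to 15 and 15 for the antiviral list, 3 and 3 for GTPases, 8 and 6 for cytokines and 6 and 4 for chemokines, since it tests fewer genes. Over all alternatives the number of higher genes ranged from 2 to 23 for G2 and mitosis, 2 to 10 for telomerase and shelterin, 1 to 14 for ribosome biogenesis, 1 to 9 for ATF4 targets and 3 to 10 for glycolysis. The number of lower genes ranged from 5 to 17 for the lysosome, 4 to 13 for disease-associated microglia genes and 1 to 5 for glycolysis. For *P2ry13*, *Tert* and *P2ry12*, near or under 1 CPM, few counts limit the precision.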
